A study of Homo sapiens with 6 samples.

Results

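The genes that encode collagen chains were examined in MG63 cells, an established human osteosarcoma line of the bone-forming mesenchymal lineage. They were taken as all genes whose symbol is COL, a number, A and a number, leaving out pseudogenes, which gave 44 of the 61806 genes listed. In 3 biological replicates FTO was stably knocked down (shFTO), and 3 biological replicates served as control (shNC). All 6 cultures were MG63, and the labels name no drug or time. The sources used here do not give the hairpin sequences, nor whether each line was a clone or a pool. FTO encodes a demethylase of N6-methyladenosine in RNA, and the comparison asked which transcripts depend on it. Expression was given as FPKM, the reads of a gene scaled to the length of its exons and to the reads of the library. Whole reads could be recovered from these values (between 93629 and 106245 in a library), so both are given below, and each mean is shown ± SD with n = 3 per group.

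Collagens are secreted matrix proteins in which 3 chains wind into a triple helix. Each chain repeats a triplet of glycine and a pair of other residues, often proline and hydroxyproline, written Gly-X-Y. Osteoblasts, the cells that build bone, deposit mainly type I collagen, a heterotrimer of the COL1A1 and COL1A2 chains, with smaller amounts of types III and V. Type VI collagen, made of COL6A1, COL6A2 and COL6A3, forms beaded filaments around mesenchymal cells. Types II, IX, X and XI belong to cartilage, and type IV forms the sheet of basement membranes.

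The repeat can be read in the exons of the genes, which sets the family apart from other genes. In GENCODE 29 (GRCh38), 24.7% of 1916 internal coding exons of the 44 genes were exactly 54 bases long, that is 6 repeats of 9 bases, against 0.413% of 157278 such exons in other protein-coding genes. An exon length that is a multiple of 9 was found for 64.1% and 13.6%. The first such 54-base exon of 6 unbroken Gly-X-Y triplets is shown for 2 chains of type VI collagen, a fibrillar chain and a basement membrane chain, with the glycine codons (GGN) in capitals. These are the sense strand of chr2:237361121-237361174 (minus strand, coding exon 15 of 43), chr21:46115872-46115925 (plus strand, coding exon 5 of 27), chr9:134753850-134753903 (plus strand, coding exon 15 of 66) and chr13:110211869-110211922 (minus strand, coding exon 7 of 52).
COL6A3: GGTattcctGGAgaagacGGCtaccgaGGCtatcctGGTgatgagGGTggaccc
COL6A2: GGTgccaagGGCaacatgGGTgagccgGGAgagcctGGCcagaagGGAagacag
COL5A1: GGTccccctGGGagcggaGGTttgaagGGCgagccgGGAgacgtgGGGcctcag
COL4A1: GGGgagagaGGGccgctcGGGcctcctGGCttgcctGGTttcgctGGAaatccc

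The chains differed in how long the repeat ran without a break. The longest unbroken run of Gly-X-Y codons was 338 triplets in COL1A1, 339 in COL1A2 and COL5A2, 343 in COL3A1 and 338 in COL5A1, the 5 fibrillar chains with reads. It was 87 triplets in COL6A1 and COL6A2, 45 in COL6A3 and 40 in COL4A1, where non-repeat codons interrupt it. Coding exons of 54 bases made up 42.9% of the internal coding exons of COL1A1 and 7.32% of those of COL6A3. Genes with and without reads did not part along this axis: the median longest run was 61 triplets over the 19 genes with reads and 60 over the 25 without.

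**Figure D1:**
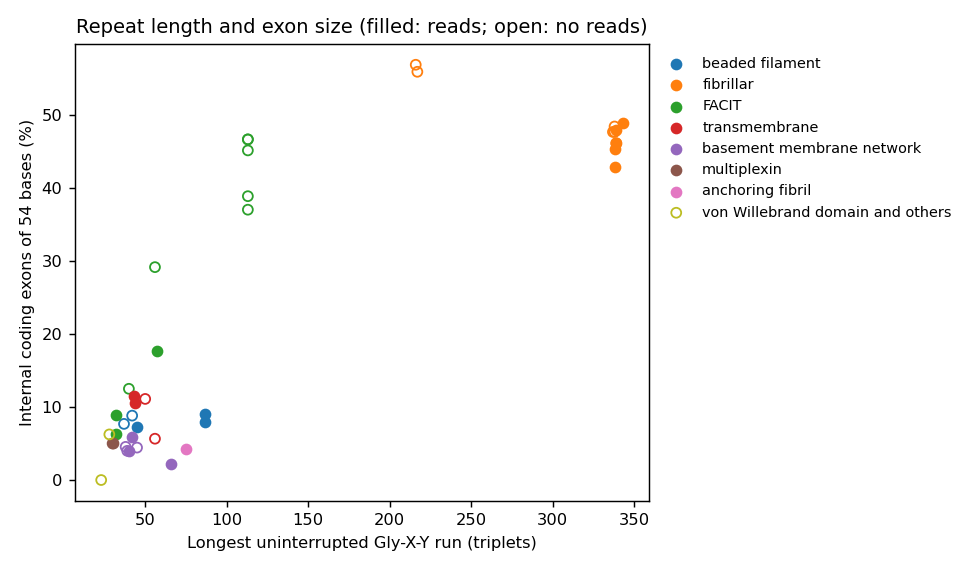
Longest unbroken Gly-X-Y run (x axis, triplets) against the percentage of internal coding exons of 54 bases (y axis) for 41 collagen chain genes, coloured by class, with filled points for genes with reads and open points for genes without. COL8A1, COL8A2 and COL10A1 have no internal coding exon and are left out. The fibrillar chains lie at the right, with filled and open points together.

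Reads were found for 19 of the 44 collagen chain genes, or 43.2%. Of 13102 protein-coding genes with an exonic length in the range of the collagen genes (3101 to 21516 bases), 40.9% had reads. These genes were matched on the range only, not on length within it. The family held 515 of 592760 reads (0.0869%), and COL6A3 and COL1A1 together held 63.5% of them. Only 8 genes had at least 10 reads over the 6 libraries, and the same 8 were the genes with reads in every library: COL6A3 with 188, COL1A1 with 139, COL6A2 with 33, COL3A1 with 30, COL6A1 with 29, COL1A2 with 26, COL5A2 with 24 and COL5A1 with 14. The other 11 genes with reads had 32 reads in all. In the same libraries YBX1, which encodes an RNA-binding protein, had 13242 reads, and the mesenchymal marker VIM had 85. Why reads were spread in this way was not tested, so shares, ranks and zeros describe these libraries only.

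By class, the reads lay almost wholly in the beaded filament and fibrillar chains. The beaded filament class had reads for 3 of 5 genes and held 48.5% of the collagen reads, and the fibrillar class had reads for 5 of 11 genes and held 45.2%. The fibril-associated collagens (FACIT) followed with 3 of 10 genes and 3.5%, the transmembrane collagens with 2 of 4 and 1.17%, and the basement membrane network with 3 of 6 and 0.777%. The multiplexins had reads for 1 of 2 genes, the anchoring fibril class for its 1 gene and the short-chain networks for 1 of 3. COL26A1 and COL28A1, which fall outside these classes, had 0 reads.

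Per length, COL1A1 had the highest level, at 26.2 FPKM as the mean over the 6 libraries. It was followed by COL6A3 at 14.7, COL6A2 at 10.4, COL6A1 at 8.92, COL3A1 at 7.37, COL5A2 at 5.52, COL1A2 at 3.99 and COL5A1 at 2.07 FPKM. Of all 7057 genes with reads, 8.18% stood above COL1A1 and 11.8% above COL6A3 on this scale. The level of COL1A1 was 1.77 times that of COL6A3 (exact 95% interval 1.41 to 2.21, from the summed reads and exonic lengths). Taken the other way, COL6A3 over COL1A1 in FPKM ran from 0.264 in shFTO replicate 1 to 1.14 in shNC replicate 2. For each other pair of neighbours in this order the interval of the ratio included 1, as for COL6A3 over COL6A2 (1.41, interval 0.972 to 2.11) and COL6A2 over COL6A1 (1.18, interval 0.695 to 2.02). All such intervals cover counting error only, and reads amplified by PCR are not independent molecules. The ratios also rest on the deposited exonic length, 21516 bases for COL6A3 with 3177 coding codons and 5334 for COL6A2 with 1019. Other lengths would shift the ratios and could change the order and which intervals include 1.

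**Figure D2:**
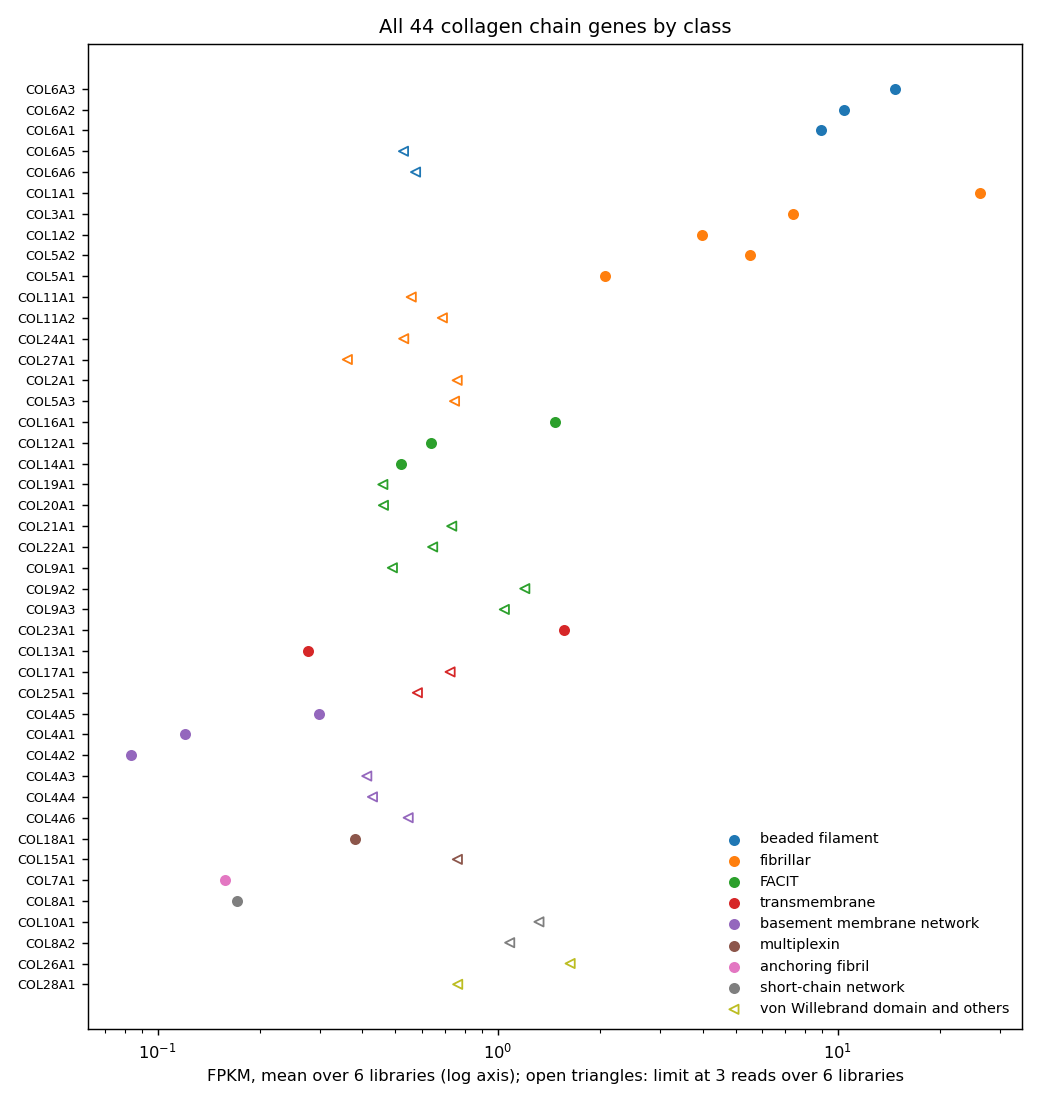
Mean FPKM over the 6 libraries (x axis, log scale) of the 44 collagen chain genes, grouped by class. Filled points are genes with reads, and open triangles are the level that 3 reads over the 6 libraries would give for genes without reads. COL1A1 stands highest at 26.2 FPKM, and the genes without reads have limits from 0.361 to 1.63 FPKM.

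Type I collagen showed unequal chains. COL1A1 (ENSG00000108821, GRCh38 chromosome 17, 50184101 to 50201632, minus strand) encodes the chain that enters the heterotrimer in more than a single copy. It had 27.1, 16.5 and 21.3 FPKM in shNC replicates 1, 2 and 3, and 28.2, 41.3 and 22.5 FPKM in shFTO replicates 1, 2 and 3, from 23, 15, 18, 27, 35 and 21 reads. The groups overlapped, since shFTO replicate 3 lay below shNC replicate 1, and shFTO replicate 2 was the highest library. COL1A2 (ENSG00000164692, chromosome 7, 94394895 to 94431227, plus strand), its partner chain, had 1.96, 3.66 and 2.96 FPKM in shNC and 4.35, 2.95 and 8.05 FPKM in shFTO, from 2, 4, 3, 5, 3 and 9 reads. Of the shFTO libraries, replicates 1 and 3 stood above every shNC library and replicate 2 did not. Per length, COL1A1 was 6.42 times as high as COL1A2 (exact 95% interval 4.2 to 10.2, on 139 and 26 reads). The ratio of FPKM within a library ran from 2.8 in shFTO replicate 3 to 14 in shFTO replicate 2, and was 8.51 ± 4.79 in shNC and 7.76 ± 5.71 in shFTO.

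The other fibrillar chains with reads were those of types III and V, which co-assemble with type I. COL3A1 (ENSG00000168542, chromosome 2, 188974373 to 189012746, plus strand) forms a homotrimer common in soft tissue. It stood at 6.27, 10.3 and 3.16 FPKM in shNC and 12.5, 6.29 and 5.72 FPKM in shFTO, from 4, 7, 2, 9, 4 and 4 reads, and the groups overlapped. COL5A1 (ENSG00000130635, chromosome 9, 134641803 to 134844843, plus strand) and COL5A2 (ENSG00000204262, chromosome 2, 189031898 to 189225312, minus strand) encode the chains of type V collagen, which starts fibrils and limits their width. COL5A1 had 1.9, 1.77 and 0.96 FPKM in shNC and 2.53, 0.95 and 4.33 FPKM in shFTO, on 14 reads. COL5A2 had 2.9, 9.47 and 5.84 FPKM in shNC and 1.29, 4.36 and 9.24 FPKM in shFTO, on 24 reads. The highest and the lowest library of COL5A1 were both shFTO. For COL5A2 the highest was shNC replicate 2 and the lowest shFTO replicate 1, and in both genes the groups overlapped. COL5A2 was 2.61 times as high as COL5A1 per length (exact 95% interval 1.3 to 5.47, on reads summed over libraries). Their FPKM ratio within a library ran from 0.51 in shFTO replicate 1 to 6.08 in shNC replicate 3. COL5A3, the remaining type V chain, was at 0 in all libraries, with a limit of 0.746 FPKM at 3 reads over the 6 libraries.

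Type VI collagen had all of its classical chains. COL6A3 (ENSG00000163359, chromosome 2, 237324003 to 237414328, minus strand), the long chain whose released end yields the fragment endotrophin, had 15.3, 18.9 and 11.4 FPKM in shNC and 7.44, 13.8 and 21.6 FPKM in shFTO, from 31, 41, 23, 17, 28 and 48 reads. The lowest and the highest library were both shFTO. Scaled to the spread that counting alone gives, the variance of its reads within groups was 4.91, against a median of 1.52 over 1021 genes with at least 30 reads, 3.72% of which were above COL6A3. COL6A2 (ENSG00000142173, chromosome 21, 46098112 to 46132848, plus strand) was the most even of the 8, at 9.94, 9.28 and 10.01 FPKM in shNC and 12.4, 9.96 and 10.9 FPKM in shFTO, from 5 to 7 reads in each library. COL6A1 (ENSG00000142156, chromosome 21, 45981770 to 46005050, plus strand) had 5.74, 5.37 and 15.4 FPKM in shNC and 10.2, 11.5 and 5.24 FPKM in shFTO, from 3 to 8 reads, and the groups overlapped. COL6A3 was 1.67 times as high as COL6A1 per length (exact 95% interval 1.12 to 2.56, on reads summed over libraries). The ratio of their FPKM within a library ran from 0.729 in shFTO replicate 1 to 4.11 in shFTO replicate 3, a spread the interval does not cover. The newer chains COL6A5 and COL6A6 were at 0, with limits of 0.528 and 0.573 FPKM.

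**Figure D3:**
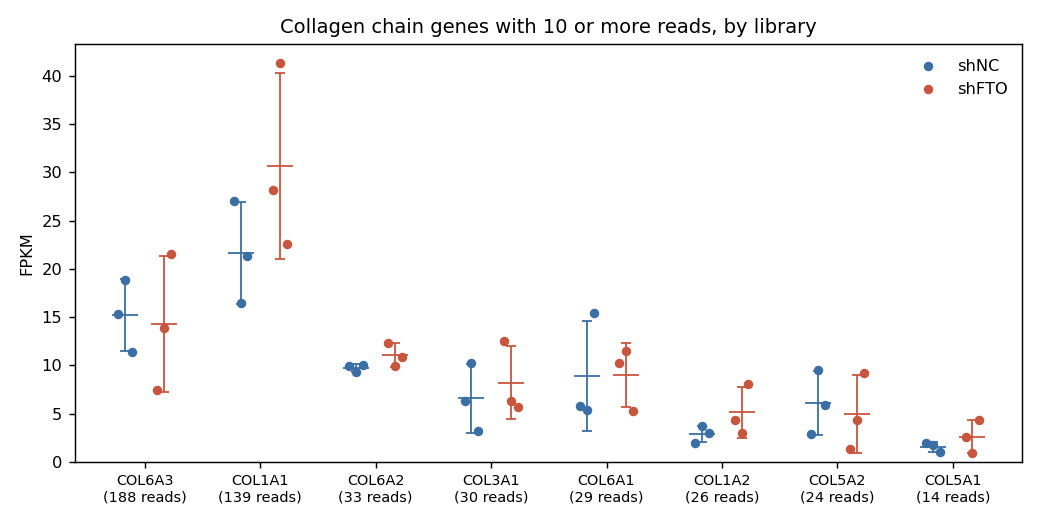
FPKM (y axis) of the 8 collagen chain genes with at least 10 reads in each library; points are libraries, short bars are group means and error bars are SD (n = 3). Points of shNC and shFTO overlap for each of the 8 genes.

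The sequence before the RefSeq start site differed between the type VI chains COL6A3 and COL6A2. The 120 bases before the RefSeq start (GRCh38.p14) are given for COL6A3 (chr2:237414165-237414284, minus strand) and COL6A2 (chr21:46097992-46098111, plus strand), and for COL4A1 (chr13:110307158-110307277, minus strand), a basement membrane gene with a single read. Capitals mark TATAAA, the core promoter motif, CCAAT, the motif of the factor NF-Y, and GGGCGG, the motif of SP1, on either strand.
COL6A3: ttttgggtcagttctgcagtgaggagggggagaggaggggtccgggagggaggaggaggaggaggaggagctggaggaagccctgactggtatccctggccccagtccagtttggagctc
COL6A2: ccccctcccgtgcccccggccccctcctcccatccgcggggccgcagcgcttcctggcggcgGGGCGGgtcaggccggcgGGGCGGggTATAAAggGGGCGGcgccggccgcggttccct
COL4A1: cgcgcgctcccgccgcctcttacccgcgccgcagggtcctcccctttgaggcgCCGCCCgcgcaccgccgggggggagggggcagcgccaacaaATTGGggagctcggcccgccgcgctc

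COL6A2 held TATAAA from 32 to 27 bases before its start, with GGGCGG at 3 places around it, while COL6A3 held none of the 3 motifs in its 120 bases. The COL6A3 window lies inside the deposited model of this gene, which begins further upstream, at 237414328. The RefSeq starts of COL6A2 and COL4A1 are those of their deposited models. The stretches are thus not alike in position, and COL6A3 may have another start. COL4A1 held CCAAT and GGGCGG, both on the opposite strand. Promoters were in the RefSeq table for 32 of the 44 genes, 12 of them with reads. In the 250 bases before a start, TATAAA was found for 4 of the 12 genes with reads and 3 of the 20 without, and for 13% of all 27305 genes in the table. CCAAT was found for 3 of 12 and 8 of 20 (37% of all genes), and GGGCGG for 9 of 12 and 12 of 20 (46.2% of all genes). A match describes the letters in this window and shows no binding.

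Beyond these 8 genes, single reads decided the values. Among the FACIT genes, whose products decorate fibrils, COL16A1 had 8 reads, 5 of them in shNC replicate 1, and COL12A1 had 7 reads over 4 libraries. COL14A1 had 3 reads, all in shNC replicate 1. Of the transmembrane collagens, COL23A1 had 4 reads, 2 in shNC replicate 2 and 2 in shFTO replicate 2, and COL13A1 had 2 reads. The endostatin precursor gene COL18A1 had 2 reads, both in shFTO replicate 3. COL7A1, the anchoring fibril chain of skin, and COL8A1, a short-chain network collagen, had 1 read each. In the basement membrane class COL4A5 had 2 reads, both in shNC replicate 1, and COL4A1 and COL4A2, the chains of the common type IV heterotrimer, had 1 read each. Of these 11 genes, COL14A1 and COL4A5 had reads in shNC only and COL13A1, COL18A1, COL4A1, COL4A2, COL7A1 and COL8A1 in shFTO only, each on 1 to 3 reads, too few to set the groups apart.

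The collagens of cartilage were not detected at this depth. COL2A1, COL9A1, COL9A2, COL9A3, COL10A1, COL11A1 and COL11A2 were all listed at 0, with limits from 0.49 to 1.32 FPKM at 3 reads over the 6 libraries. Of 7 marker genes of chondrocytes, including ACAN and SOX9, 0 had reads as well. The other genes at 0 were the fibrillar COL24A1 and COL27A1, the FACIT genes COL19A1, COL20A1, COL21A1 and COL22A1, the basement membrane genes COL4A3, COL4A4 and COL4A6, the epithelial hemidesmosome gene COL17A1, and COL25A1, COL15A1, COL8A2, COL26A1 and COL28A1. Over the 25 genes at 0 the limit had a median of 0.643 FPKM, so lower levels could not be seen.

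The columns of the deposited table taken as shFTO are headed only sh with a number, and were assigned to shFTO as the group left beside NC. FTO itself gave no check of this or of the knockdown labels, being at 0 in all 6 libraries, the controls included (limits 0.486 FPKM over the shNC libraries and 0.462 FPKM over the shFTO libraries). Reads were found for 8 of 13 mesenchymal and bone lineage markers, 2 of 7 epithelial, 2 of 6 muscle, 1 of 6 endothelial, 1 of 6 neural and 0 of 7 blood cell and 0 of 5 adipocyte markers. The mesenchymal and bone list had 51.3 to 71.3 of 100000 reads in shNC and 62.1 to 65.9 in shFTO. Of the bone markers, ALPL, BGLAP, SPP1, IBSP and SP7 were at 0. The epithelial list had 0 to 1.07 of 100000 reads in shNC and 0 to 3.76 in shFTO, with EPCAM and CDH1 at 0. It was carried by KRT18, a keratin, with 0 reads in each shNC library and 3, 0 and 3 reads in the shFTO libraries. Its limma adjusted p was 0.772, with an unadjusted value under 0.05. KRT18 entered the test through shFTO alone, the group where it was high, so its p-value and direction are no result. In the mesenchymal and bone list, 1 of 6 tested genes also had an unadjusted limma p under 0.05. The part of epithelial marker reads in the collagen values was not tested.

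Between shFTO and shNC, 0 of the collagen chain genes were called. The test was limma on log2(FPKM + 1), with p-values adjusted by Benjamini-Hochberg over 4932 genes and called under 0.05, and it called 0.0406% of all genes tested. Of the 44 genes, 11 passed the filter of a mean of at least 1 FPKM in a group, COL14A1 and COL16A1 through shNC alone, on 3 and 8 reads. The smallest unadjusted p among the 11 in limma was 0.246, for COL1A1, and 190 of the 4932 genes had one under 0.05. In such bulk RNA, fewer cells of a type and less RNA per cell cannot be told apart. COL1A1 had 21.6 ± 5.3 FPKM in shNC and 30.7 ± 9.62 in shFTO, a log2 fold change of 0.47 (SE 0.40, limma adjusted p = 0.772). COL6A3 had 15.2 ± 3.73 and 14.3 ± 7.07 FPKM, a log2 fold change of -0.17 (SE 0.51, limma adjusted p = 0.94), and it turned to 0.20 without shFTO replicate 1. COL1A2, with 2.86 ± 0.854 and 5.12 ± 2.64 FPKM, had the largest estimate among the 8 genes with at least 10 reads, a log2 fold change of 0.60 (SE 0.88, limma adjusted p = 0.835). That estimate fell to 0.28 without shFTO replicate 3, where it was no longer the largest, and that of COL1A1 ran from 0.24 without shFTO replicate 2 to 0.66 without shFTO replicate 3.

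Like those of COL6A3 and COL1A2, the estimates of the remaining 5 were smaller than their standard errors. They were 0.16 for COL6A2 (SE 0.56), 0.32 for COL3A1 (SE 0.69), 0.10 for COL6A1 (SE 0.64), -0.38 for COL5A2 (SE 0.83) and 0.41 for COL5A1 (SE 1.02), as log2 fold changes with limma adjusted p from 0.904 to 0.965. Of the 8 genes, 6 had a positive and 2 a negative estimate, against 52% positive among 1918 tested genes with at least 10 reads. Leaving out a single library turned the sign for COL3A1 (without shNC replicate 3), COL5A2 (without shFTO replicate 1) and COL6A1 (without any of shNC replicates 1 and 2 and shFTO replicates 1 and 2). The median log2 fold change was 0.24 for the 8 and 0.02 for the 1918. In 0 of the 8 did the libraries of the groups separate, where this was so for 10.8% of the 1918. Of the genes with fewer reads, COL23A1 had a log2 fold change of 0.03 (SE 1.07). COL16A1 had one of -0.59 (SE 1.05), but like COL14A1, for which no fold is given on 3 reads against 0, it entered the test through the group where it was high, so its direction is no result. These p-values set the difference against the spread between 3 libraries a group, to which single reads contribute.

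On the read scale, the ratio of shFTO to shNC, scaled to library totals, was 1.41 for COL1A1 (exact 95% interval 0.993 to 2.02) and 0.931 for COL6A3 (0.692 to 1.25). For COL1A2 it was 1.8 (0.758 to 4.57) and for COL5A1 1.71 (0.515 to 6.5). These intervals cover counting error only and are too narrow where libraries differ by more. A quasi-Poisson fit to the reads, which widens them by a dispersion drawn towards that of all genes, gave a 95% interval of 0.892 to 2.23 for COL1A1. For COL6A3 it gave 0.632 to 1.37, but with a dispersion of 1.83 in place of the gene's own 4.91, so that this interval is too narrow for the spread COL6A3 showed. That fit called 0 of 4 collagen genes and 0% of the 1021 genes it tested, of which 60 had an unadjusted p under 0.05.

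**Figure D4:**
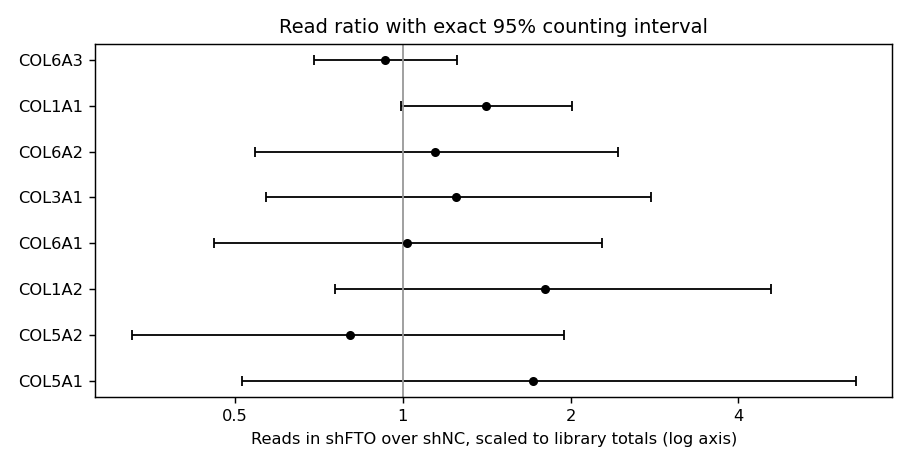
Ratio of reads in shFTO to shNC, scaled to library totals (x axis, log scale), for the 8 collagen chain genes with at least 10 reads; points are ratios of summed reads and bars are exact 95% counting intervals. Each interval includes 1; that of COL1A1 starts at 0.993.

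Summed over the family, collagen reads were 89, 86.1 and 70.5 per 100000 in shNC and 72.5, 95.7 and 107 per 100000 in shFTO. The means were 81.9 ± 9.98 and 91.8 ± 17.7, and the groups overlapped. The fibrillar chains had 35, 34.7 and 29.9 per 100000 reads in shNC and 42.4, 48.9 and 44.5 in shFTO, so that the libraries of the groups separated. Among single genes, 10.8% of the 1918 tested with at least 10 reads separated too, in either direction. Without COL1A1 the fibrillar chains had 10.6, 19.8 and 10.7 per 100000 in shNC and 16.9, 11.7 and 24.2 in shFTO, and the groups overlapped. The type VI chains had 42.8 ± 5.19 and 41.6 ± 13.4 per 100000. The sums are given as values only, with no test, since they are scores over chosen genes.

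**Figure D5:**
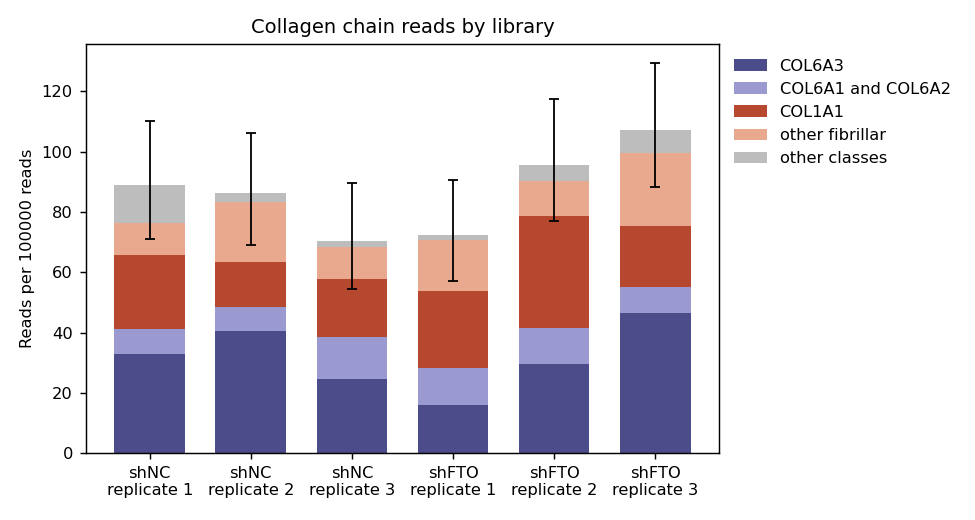
Collagen chain reads per 100000 reads (y axis) in each library, stacked by gene or class, with the exact 95% counting interval of the total. The total runs from 70.5 in shNC replicate 3 to 107 in shFTO replicate 3, and COL6A3 and COL1A1 make up most of each bar.

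Genes that modify collagen chains in the endoplasmic reticulum had few reads. Of 20 such genes found, 13 had reads, 12 were tested, and the limma fit called 0 of them higher and 0 lower. In all 6 lists described here, 0 genes had an unadjusted limma p under 0.05 either. Over the whole series, limma called only 2 of 4932 genes, and for 190 the p-value before adjustment lay below 0.05. Against such low shares, zeros in lists of 5 to 12 tested genes say little about these lists. Of the modifying genes, the most-read was PDIA3, a disulfide isomerase, with 12 and 23 reads in shNC and shFTO. PPIB, a prolyl isomerase of the prolyl 3-hydroxylation complex, followed with 10 and 5. P4HB, a subunit of prolyl 4-hydroxylase, and SERPINH1, the collagen chaperone HSP47, were level at 14 reads each. Of 23 genes for export, processing and cross-linking, 18 had reads, 12 were tested and 0 were called. They were led by TFG, a factor of secretory vesicle assembly, with 16 and 24 reads, the lysyl oxidase gene LOX with 6 and 7, and SAR1A, a GTPase of the secretory coat, with 8 and 4.

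Among 12 collagen receptors, 6 had reads, 5 were tested and 0 were called. ITGB1, the integrin chain shared by the collagen-binding integrins, had 16.8 ± 4.74 and 14.1 ± 1.89 FPKM (log2 fold change -0.21, SE 0.48, limma adjusted p = 0.91). DDR2, a receptor kinase for fibrillar collagen, had 18 and 9 reads, and ITGA2 had 10 and 4. Of 26 matrix proteins that bind collagen, 14 had reads, 10 were tested and 0 were called. SPARC had 43.9 ± 4.99 and 44.6 ± 17.8 FPKM, TGFBI 20.3 ± 9.79 and 27.2 ± 7.49, and the fibronectin gene FN1 9.62 ± 1.93 and 10.8 ± 2.59. On this scale SPARC stood above COL1A1 in both groups.

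Of 17 collagenases, gelatinases and their inhibitors, 10 had reads, 9 were tested and 0 were called. The list had 15.9 to 25.6 of 100000 reads in shNC and 27.3 to 35.1 in shFTO, so that the libraries of the groups separated. In each of the other lists the groups overlapped. Among single genes, 10.8% of the 1918 tested with at least 10 reads separated, in either direction. These sums were not tested. The list was led by the cathepsin gene CTSB, with 6.29 ± 5.26 and 11.6 ± 2.45 FPKM (log2 fold change 1.03, SE 0.67, limma adjusted p = 0.772). The membrane-bound collagenase gene MMP14 had 10.4 ± 3.1 and 16.3 ± 3.92 FPKM (log2 fold change 0.62, SE 0.52, limma adjusted p = 0.772), and the inhibitor gene TIMP2 had 10 and 13 reads. Of 24 transcription and mRNA regulators found, 15 had reads, 12 were tested and 0 were called, and YBX1, HNRNPK and PCBP2, all RNA-binding proteins with wider roles, held most of the 23102 reads. Over these 6 lists the median log2 fold change ran from -0.21 for the receptors to 0.28 for the modifying enzymes, against 0.00 over all genes tested.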

How the data were processed

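Poly(A) RNA of 3 shNC and 3 shFTO cultures was sequenced with strand-specific libraries, per the labels. The submitters' processing notes name HISAT2 2.2.1, StringTie 1.3.3b, HTSeq 0.6.1, FastQC 0.10.1 and DESeq2 1.50.2, with GRCh38, without their order; no source used here states the strand setting of counting. The authors deposited FPKM to 2 decimals. Columns NC1 to NC3 were matched to shNC by name. Columns sh1 to sh3 do not name FTO and were matched to shFTO as the remaining group, by number.

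Reads were recovered from FPKM and exonic length, with the library total (searched from 20000 to 200000) at which values came out whole; 100% did within 0.05 read. Between libraries the chi-square per degree of freedom was 1.68 to 2.03, and no pair held identical values. The main test was limma 3.58.1 (R 4.3.3, trend and robust) on log2(FPKM + 1), with group as the only term; its fold changes understate those of low genes. Exact intervals used SciPy 1.17.1. The fits were also run on simulated data with known changes, and how many of these they found is not given here. The members and lists were chosen with earlier results of these data known. All collagen genes with reads are named, with every library from 10 reads on, and the 3 most-read genes of each list. SC65 and HNRNPE1 were not found under these symbols. Alternatives were a pseudocount of 0.1, other filters and scalings, a replicate block, a quasi-Poisson fit to reads, and each library left out.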

Additional observations from a re-analysis of the deposited data

How the results depend on the processing

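No collagen chain gene was called under any of the 13 alternatives. The count over all genes, 2 as reported, was 7 with a pseudocount of 0.1, 9 over all genes with a read, 4 with upper-quartile scaling, 17 with a replicate block, and 0 both with at least 10 reads per library and in the quasi-Poisson fit. Leaving out 1 library gave counts from 2 to 9, with 9 without shNC replicate 2, 7 without shNC replicate 3 and 8 without shFTO replicate 1. Same-numbered libraries showed no clear pairing: their deviations from group means correlated at -0.00, 0.04 and -0.01 over 705 genes. Libraries with different numbers correlated at -0.03 to 0.03. Counting error is part of these deviations, so a weak pairing could be missed. The block changed no collagen call. Of 94 estimates for the 8 collagen genes with at least 10 reads, 7 changed sign and none passed the threshold; the cause was not tested. Without shFTO replicate 1, COL6A3 went to 0.20, COL5A2 to 0.18 and COL6A1 to -0.01. COL6A1 also went to -0.10, -0.14 and -0.09 without shNC replicate 1, shNC replicate 2 and shFTO replicate 2, and COL3A1 to -0.053 without shNC replicate 3. The leave-one-out estimates of COL6A3, COL5A2, COL6A1 and COL3A1 ran from -0.51 to 0.20, -0.90 to 0.18, -0.14 to 0.55 and -0.05 to 0.66. Those of COL1A2, COL1A1, COL5A1 and COL6A2 ran from 0.28 to 0.87, 0.24 to 0.66, 0.07 to 0.79 and 0.09 to 0.23. The ratio of summed collagen reads, 1.12, was 1.24 without COL6A3, 1.11 without the 10 most-read genes in the denominator, and 1.03 to 1.24 with 1 library left out. Depth limits each gene: at a mean library 1 read of COL6A2 is worth 1.9 FPKM.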

Other observations

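Several collagen chain genes lie side by side in the genome. On chromosome 2, COL3A1 and COL5A2 lie 19151 bases apart on opposite strands and had 30 and 24 reads. COL6A1 and COL6A2 lie 93061 bases apart on the plus strand of chromosome 21 and had 29 and 33 reads. COL4A1 and COL4A2 on chromosome 13 are read away from each other, with RefSeq starts 127 bases apart, and had 1 read each. The read of COL4A1 was in shFTO replicate 2 and that of COL4A2 in shFTO replicate 3. The models of COL4A1 and COL4A2 overlap in the deposited table, so their assignment of reads is uncertain. COL4A3 with COL4A4, COL6A5 with COL6A6 and COL9A1 with COL19A1 had 0 reads. In the pair of COL4A5 and COL4A6, the former had 2 reads and the latter 0. These 7 pairs are given as values, with no test. Reads were found for 19 of the 44 genes, and how often other pairs of them matched was not examined.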
